A study of Mus musculus with 9 samples.

Results

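Actin cytoskeleton genes that act outside the sarcomere, 10 in number, were followed in mouse primary myoblasts grown at a low or a high level of the amino acid glycine. They are the actin genes Actb, Actg1 and Acta2, the transgelin genes Tagln and Tagln2, the calponin genes Cnn2 and Cnn3, the tropomyosin gene Tpm4 and the myosin light chain genes Myl9 and Myl6. They were chosen by symbol as cytoskeletal and smooth muscle type actin genes and their partners, many of them known targets of serum response factor, and each symbol matched 1 of the 53715 gene IDs in the table. RNA sequencing covered passage 1 myoblasts of strain C57BL/10ScSn-Dmdmdx/J in 9 libraries, 3 with glycine at 0.2 mM and 6 with glycine at 0.8 mM. Both groups therefore carry the mdx mutation of the dystrophin gene, and no library came from cells with intact dystrophin. Values are TPM, a transcript abundance per gene length on a scale with the same sum in each library. Their depth is unknown.

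Actin polymerizes from monomers into filaments on which myosin II pulls to move, shape and contract cells. Myosin II consists of heavy chains with an essential light chain, such as the product of Myl6, and a regulatory light chain, such as the product of Myl9, whose phosphorylation switches the motor on. Tropomyosins lie along the filament, and calponins and transgelins bind and stabilize it. The transcription factor SRF binds a DNA element called the CArG box in the control regions of many of these genes. Its coactivators of the MRTF family are held back by free actin monomers, so that actin assembly and the transcription of actin genes are coupled. In the muscle lineage, Acta2, best known as the smooth muscle actin, is also made for a time by differentiating myoblasts.

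The start regions of the genes were searched for the CArG box, because its presence is the sequence feature by which these genes are usually grouped. The RefSeq promoter table on build GRCm38.p6 gave 300 bases around each start site, 250 before it and 50 after it, with 9 entries for 8 of the 10 genes. Actb and Tagln had no entry. A CArG box, read as CC, then 6 bases that are each A or T, then GG, and the same on both strands, stood in 4 of the 9 entries, those of Actg1, Cnn2, Myl9 and 1 of the 2 start sites of Myl6. Among all 32851 promoter sequences of the table, 1.63% held one. A looser form, in which 1 of the 6 inner bases may be G or C, and which includes the CArG box itself, stood in 5 of the 9 entries and in 9.98% of all. It added Acta2, with 2 such matches, and a further match in Myl9. Many of the genes were chosen as known SRF targets, so higher shares among them were favoured by that choice. Matches are in capitals below, 5′ to 3′ on the gene's strand, and a match is a description of letters, not a shown binding site.

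Actg1, chr11:120348446-120348745, minus strand: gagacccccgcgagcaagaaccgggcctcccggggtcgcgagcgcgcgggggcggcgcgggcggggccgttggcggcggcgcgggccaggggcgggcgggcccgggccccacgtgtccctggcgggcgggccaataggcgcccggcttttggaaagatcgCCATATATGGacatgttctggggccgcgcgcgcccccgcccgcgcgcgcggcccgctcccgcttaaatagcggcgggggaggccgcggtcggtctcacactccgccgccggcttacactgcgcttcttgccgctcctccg
Acta2, chr19:34255324-34255623, minus strand: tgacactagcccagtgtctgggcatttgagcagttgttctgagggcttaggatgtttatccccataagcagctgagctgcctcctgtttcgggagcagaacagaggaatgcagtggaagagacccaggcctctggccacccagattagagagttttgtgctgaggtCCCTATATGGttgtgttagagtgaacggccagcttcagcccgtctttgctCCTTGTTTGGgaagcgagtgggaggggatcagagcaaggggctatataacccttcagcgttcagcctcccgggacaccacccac
Cnn2, chr10:79988350-79988649, plus strand: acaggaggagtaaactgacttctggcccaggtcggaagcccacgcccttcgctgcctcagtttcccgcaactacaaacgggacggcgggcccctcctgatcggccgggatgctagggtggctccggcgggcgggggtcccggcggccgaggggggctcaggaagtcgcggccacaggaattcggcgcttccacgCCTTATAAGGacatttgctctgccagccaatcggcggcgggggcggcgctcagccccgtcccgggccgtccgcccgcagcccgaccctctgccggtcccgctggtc
Myl9, chr2:156775214-156775513, plus strand: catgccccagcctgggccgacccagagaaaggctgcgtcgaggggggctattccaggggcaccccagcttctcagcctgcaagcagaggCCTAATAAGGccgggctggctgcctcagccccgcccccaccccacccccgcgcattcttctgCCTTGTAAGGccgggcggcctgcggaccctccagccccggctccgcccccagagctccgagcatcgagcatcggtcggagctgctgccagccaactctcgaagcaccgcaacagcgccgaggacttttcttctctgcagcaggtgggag
Myl6, chr10:128492960-128493259, minus strand: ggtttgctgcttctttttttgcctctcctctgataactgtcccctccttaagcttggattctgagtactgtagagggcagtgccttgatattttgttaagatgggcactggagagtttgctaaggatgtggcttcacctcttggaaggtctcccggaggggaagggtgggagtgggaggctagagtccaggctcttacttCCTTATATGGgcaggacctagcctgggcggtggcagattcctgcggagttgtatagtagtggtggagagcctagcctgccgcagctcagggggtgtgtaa

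The CArG box of Actg1, CCATATATGG, began 90 bases before the start site, that of Cnn2, CCTTATAAGG, 56 bases before it, and that of Myl6, CCTTATATGG, 50 bases before it. In Myl9 the CArG box CCTAATAAGG began 161 bases before the start site and the looser CCTTGTAAGG 99 bases before it. The looser matches of Acta2, CCCTATATGG and CCTTGTTTGG, began 84 and 34 bases before its start site. The windows of Tagln2, Cnn3 and Tpm4 held neither form, nor did that of the other start site of Myl6. On this minus-strand gene, the start site without a match, at 128493886, is upstream of that with the CArG box, at 128493009.

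The libraries at the higher glycine level were compared with those at the lower one, and genes that passed are said to have risen or fallen at 0.8 mM relative to 0.2 mM. Of the 10 genes, 9 rose, 0 fell and 1, Tagln2, did not pass. The test was limma on log2(TPM + 1) over the 10049 genes with at least 1 TPM in at least 3 libraries, two-sided, with a Benjamini-Hochberg adjusted p under 0.05 as the threshold. All 10 genes met that filter. Across all genes tested, 16.7% rose and 9.81% fell, 26.6% together. The median change of the 10 genes was 0.76 on the log2(TPM + 1) scale, against 0.06 for all genes tested, and their changes ran from 0.06 for Tagln2 to 2.48 for Myl9. The 0.8 mM libraries lay above every 0.2 mM library for 9 of the 10 genes, against 17.6% of all genes tested. With quantile normalization Tagln2 stood lower at 0.8 mM and passed (limma adjusted p = 0.000553), so that 9 rose and 1 fell.

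Some facts of the series bear on all values. Whether each library had its own culture or animal is not in the labels, and p-values then rest on a spread between samples that may be technical. Library names fall into 2 numbered sets that match the glycine levels, so a batch along these sets and glycine cannot be told apart. The 0.2 mM libraries had between 8979 and 9243 genes of at least 1 TPM. The 0.8 mM libraries had more, between 9321 and 9457, and the cause was not tested. Across all genes 1683 rose and 986 fell, so that 63.1% of calls were rises, a share of 49.8% after quantile normalization and 52.6% after median-ratio scaling. The 10 genes held between 0.364% and 0.404% of all TPM in the 0.2 mM libraries and between 0.628% and 0.734% in the 0.8 mM libraries.

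**Figure D1:**
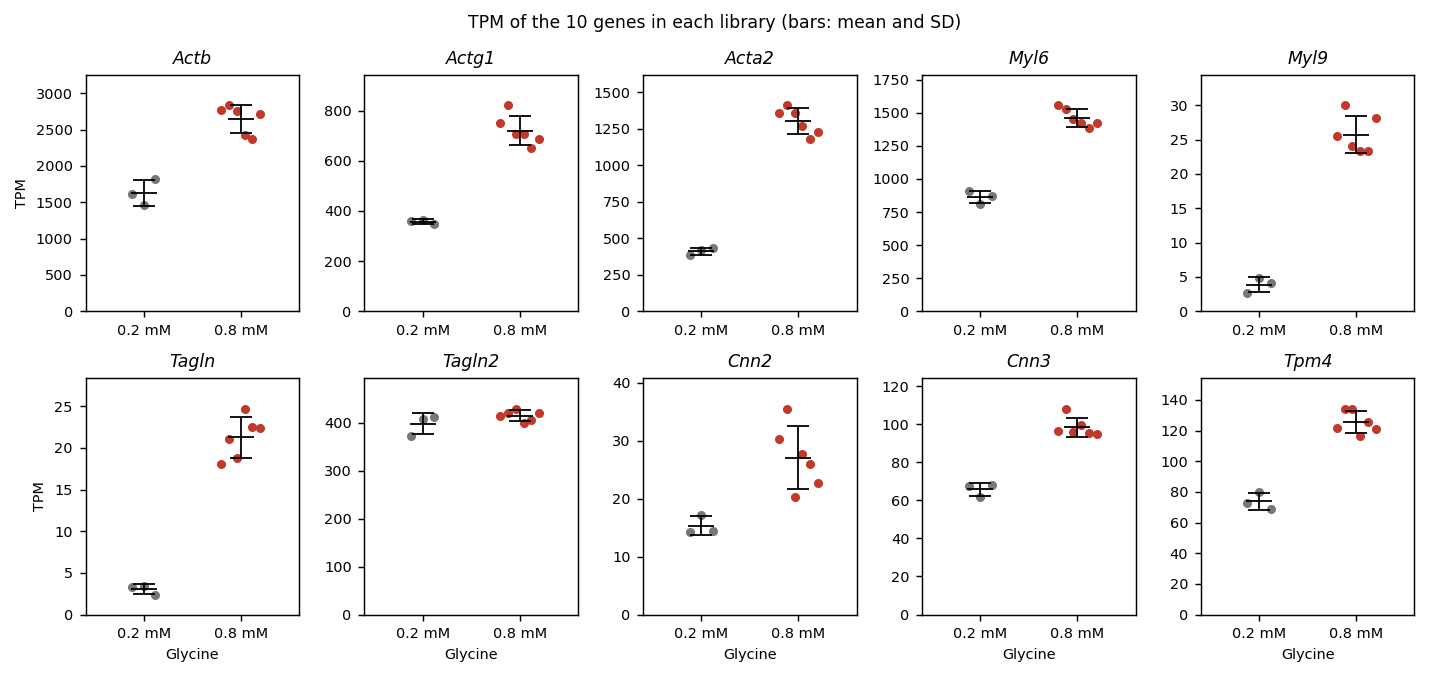
TPM of each of the 10 genes (vertical axes, from 0) in every library, grey for the 3 at 0.2 mM and red for the 6 at 0.8 mM glycine, with mean and SD in black. The groups are apart in 9 panels, as for Acta2 at 412 and 1301 TPM on average, and overlap for Tagln2 at 398 and 415 TPM, a gene whose direction turned with median-ratio or quantile scaling.

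Among the actins, Actb, the ubiquitous cytoplasmic beta-actin, was the most abundant of the 10 genes at both levels. It stood at 1609, 1465 and 1821 TPM in the 0.2 mM libraries and between 2371 and 2831 TPM, with a median of 2735, in the 0.8 mM libraries. Every 0.8 mM library was above the highest 0.2 mM library, by at least 1.302 times. The mean rose from 1631 ± 179 (SD, n = 3) to 2644 ± 194 TPM (SD, n = 6), and the log2 fold change was 0.70 with an SE of 0.08 (limma adjusted p = 5.85e-05). Actb lies on chromosome 5 (142903115 to 142906754, minus strand, GRCm38).

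Actg1, the other cytoplasmic actin, which differs from beta-actin at a few residues near its start, lies on chromosome 11 (120345690 to 120348542, minus strand). Its values were 362, 364 and 348 TPM at 0.2 mM and from 651 to 821 TPM, with a median of 708, at 0.8 mM. The low group was tight and the groups stood far apart. The change was 1.00 ± 0.07 (SE, limma adjusted p = 1.24e-06), or 2.01 times between the means. Reads of Actb and Actg1 share long near-identical stretches, and how reads that match both were assigned is not given in the sources used here, so their split is uncertain.

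Acta2, the smooth muscle alpha-actin on chromosome 19 (34241090 to 34255590, minus strand), stood at 384, 420 and 431 TPM at 0.2 mM. At 0.8 mM it ran from 1182 to 1411 TPM, with a median of 1313. The lowest 0.8 mM library was 2.74 times the highest 0.2 mM library. The mean rose from 412 ± 24.5 to 1301 ± 88.2 TPM, and the log2 fold change was 1.66 with an SE of 0.06 (limma adjusted p = 3.09e-08). It ranked 97th among the 10049 changes when ordered from the largest rise.

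Myl9 and Tagln were the least abundant of the 10 genes at 0.2 mM and rose by the largest factors. Myl9 encodes a regulatory light chain of nonmuscle and smooth muscle myosin II and lies on chromosome 2 (156775420 to 156781658, plus strand). It was at 2.66, 4.83 and 4.06 TPM at 0.2 mM and between 23.3 and 29.97 TPM, with a median of 24.8, at 0.8 mM. The mean rose 6.68 times, from 3.85 ± 1.10 to 25.7 ± 2.75 TPM (log2 fold change 2.48 ± 0.15, limma adjusted p = 5.45e-07). Its change ranked 21st of all genes tested.

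Tagln encodes transgelin, also called SM22 alpha, an actin-binding protein widely used as a marker of smooth muscle, and lies on chromosome 9 (45929619 to 45936058, minus strand). Its values were 3.27, 3.44 and 2.36 TPM at 0.2 mM and between 18.0 and 24.7 TPM, with a median of 21.7, at 0.8 mM. The mean rose 7.03 times, from 3.02 ± 0.584 to 21.3 ± 2.498 TPM (log2 fold change 2.47 ± 0.13, limma adjusted p = 2.07e-07), and the change ranked 23rd. The log2(TPM + 1) scale understates the factor for genes this low. Exons of Tagln overlap those of Pcsk7 and of the antisense gene Gm48529 on the opposite strand. Whether counting used strand is not given in the sources used here, and the means of Pcsk7 were 1.56 and 2.16 TPM and those of Gm48529 0.0296 and 0.300 TPM.

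Tagln2, the transgelin paralog found in many cell types, was the exception. It stood at 373, 409 and 413 TPM at 0.2 mM and between 399 and 429.7 TPM, with a median of 417, at 0.8 mM, and the groups overlapped. The means were 398 ± 22.1 and 415 ± 11.3 TPM, and the log2 fold change was 0.06 with an SE of 0.05 (limma adjusted p = 0.405). The sign of this difference depended on the scaling, being -0.03 after median-ratio scaling and -0.25 after quantile normalization. Tagln2 lies on chromosome 1 (172500047 to 172507380, plus strand).

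**Figure D2:**
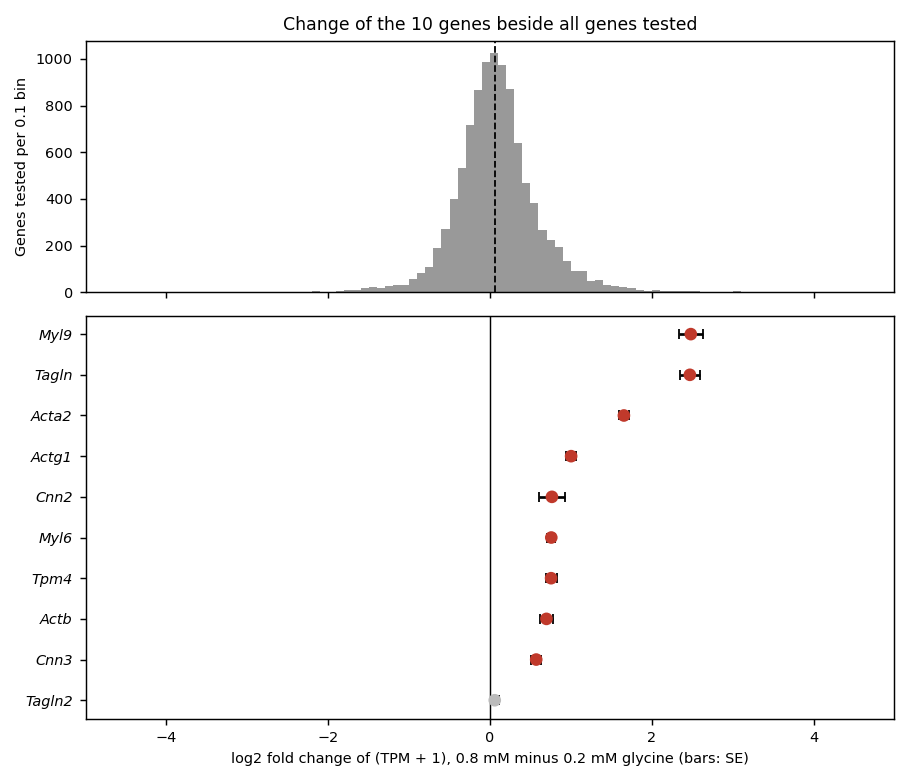
The upper panel counts all 10049 genes tested by the log2 difference of (TPM + 1) between 0.8 mM and 0.2 mM, with the median of 0.06 as a dashed line. The lower panel gives the change of each of the 10 genes with its SE, red where it passed and grey for Tagln2, from 0.06 for Tagln2 (below 0 with median-ratio or quantile scaling) to 2.48 for Myl9.

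The remaining 4 genes rose by smaller factors. Myl6, the essential light chain shared by nonmuscle and smooth muscle myosin II, was second in abundance and lies on chromosome 10 (128490860 to 128494145, minus strand). It stood at 907, 814 and 869 TPM at 0.2 mM and between 1382 and 1556 TPM, with a median of 1438, at 0.8 mM. The groups did not overlap and the change was 0.76 ± 0.05 (SE, limma adjusted p = 1.28e-06).

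Tpm4, a tropomyosin of nonmuscle actin filaments on chromosome 8 (72134975 to 72153142, plus strand), stood at 72.9, 79.9 and 69.1 TPM at 0.2 mM and between 117 and 134 TPM, with a median of 124, at 0.8 mM. Its change was 0.76 ± 0.07 (SE, limma adjusted p = 1.43e-05), with no overlap of the groups.

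Cnn3, the acidic calponin on chromosome 3 (121426497 to 121458207, plus strand), stood at 67.5, 62.0 and 68.2 TPM at 0.2 mM and between 94.9 and 108 TPM, with a median of 96.3, at 0.8 mM. The change was 0.57 ± 0.06 (SE, limma adjusted p = 5.80e-05), the smallest among the 9 that rose. Cnn2, a calponin of nonmuscle cells and smooth muscle on chromosome 10 (79988584 to 79996062, plus strand), stood at 14.3, 17.2 and 14.4 TPM at 0.2 mM and between 20.3 and 35.5 TPM, with a median of 26.8, at 0.8 mM. Its groups lay closest together of the 9, with the lowest 0.8 mM library 1.18 times the highest 0.2 mM library. The change was 0.77 ± 0.16 (SE, limma adjusted p = 0.0039), and the SD of the 0.8 mM libraries was 20.1% of their mean, against 2.73% for Tagln2.

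The order of the levels, which TPM allows because it is per length, changed little. At 0.2 mM it ran Actb, Myl6, Acta2, Tagln2, Actg1, Tpm4, Cnn3, Cnn2, Myl9 and Tagln. The ranges of Acta2 and Tagln2 overlapped there, as did those of Myl9 and Tagln, while all other neighbours were apart. At 0.8 mM Actg1 stood above Tagln2, and the other places in the order were as at 0.2 mM. The ranges of Acta2 and Myl6 overlapped at 0.8 mM, although Myl6 was higher in 6 of 6 libraries. Those of Cnn2 and Myl9 also overlapped there, as did those of Myl9 and Tagln, while Cnn3 and Cnn2 were apart. In TPM gained, the order was another one, with 1012 for Actb, 889 for Acta2, 597 for Myl6 and 363 for Actg1, against 21.9 for Myl9 and 18.2 for Tagln.

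Ratios between the genes within a library do not change when all values of a library are scaled by 1 factor, though quantile normalization can change them, and an exact permutation test, two-sided, was run on each of 8 such quantities. Its two-sided p is that of the smaller tail, doubled. With 3 against 6 libraries, and so 84 splits, this p cannot go below 0.0238. The genes were chosen with earlier results of these data known. A ratio between genes with unlike changes repeats those changes, so its p adds no separate support. The ratio of Acta2 to Actb rose from 0.254 ± 0.0283 (SD, n = 3) to 0.493 ± 0.0232 (SD, n = 6), with no overlap (exact permutation p = 0.0238, adjusted over the 8 quantities 0.0317). Acta2 thus gained on Actb by 1.94 times. Myl9 gained on Myl6, from a ratio of 0.00451 ± 0.00151 to 0.0176 ± 0.00162, and Tagln on Tagln2, from 0.00763 ± 0.00168 to 0.0514 ± 0.00712, each with the same p and adjusted p. Tagln nevertheless remained far rarer than its paralog. The ratio of Actb to Actg1 fell from 4.57 ± 0.616 to 3.68 ± 0.218, again with the smallest exact p, although the closest libraries were near each other at 4.02 and 3.96. The difference of the means, -0.89, was -0.557 without 0.2 mM replicate 3. After quantile normalization the log2 fold changes of Actb and Actg1 were 0.61 and 0.73, against 0.70 and 1.00 without it. The ratio of Cnn2 to Cnn3 was 0.234 ± 0.0381 and 0.274 ± 0.0439, with groups that overlapped (exact permutation p = 0.214, adjusted 0.214).

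**Figure D3:**
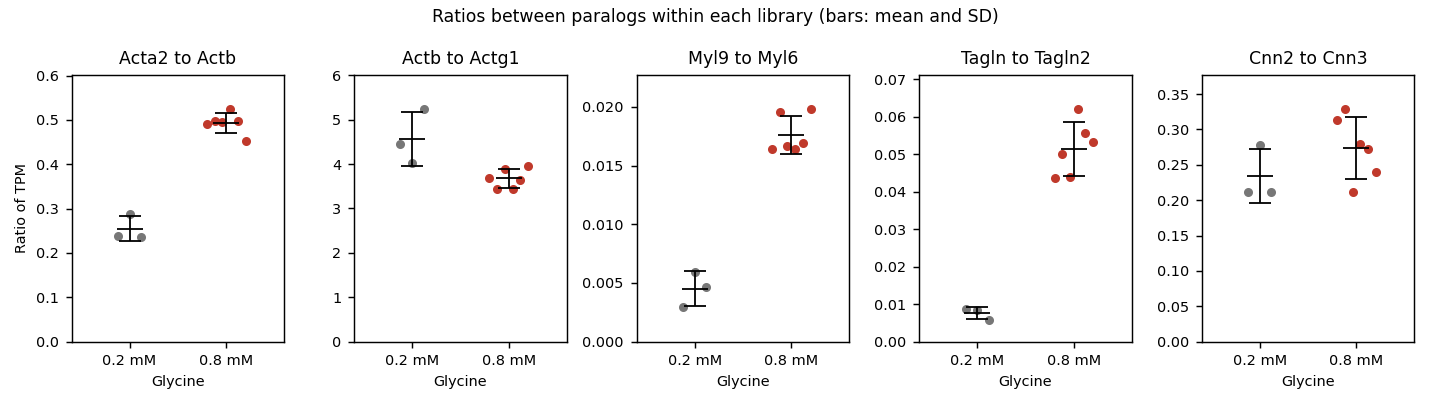
Ratio of the TPM of paralogs or partner isoforms within each library (vertical axes, from 0), grey for 0.2 mM (n = 3) and red for 0.8 mM glycine (n = 6), with mean and SD in black. Acta2 to Actb goes from 0.254 to 0.493 on average, Tagln to Tagln2 and Myl9 to Myl6 stand apart between the groups, and Cnn2 to Cnn3 overlaps.

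The actin transcripts as a pool shifted toward the sarcomeric isoforms. The pool is the summed TPM of all 6 actin genes, the 3 above with Actg2 of smooth muscle and the striated muscle actins Acta1 and Actc1. Actb with Actg1 held between 54.2% and 57.3% of it at 0.2 mM and between 32.4% and 34.7% at 0.8 mM. Their share fell from 55.5 ± 1.59% to 33.8 ± 0.856% (exact permutation p = 0.0238, adjusted 0.0317), although the TPM of both genes rose. Acta1 with Actc1 held 32.9 ± 1.27% and 53.1 ± 1.06% (exact permutation p = 0.0238, adjusted 0.0317). Because the shares make up the whole pool, this rise and the fall of Actb with Actg1 largely mirror each other and are not separate results. Acta2 held 11.5 ± 0.813% and 13.1 ± 0.454%, with ranges that overlapped (exact permutation p = 0.0476, adjusted 0.0544), so its share did not pass while its TPM more than tripled. Actg2 was under 1.39 TPM in every library and held under 1% of the pool. How reads that match more than 1 of the 6 genes were assigned is not given in the sources used here.

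**Figure D4:**
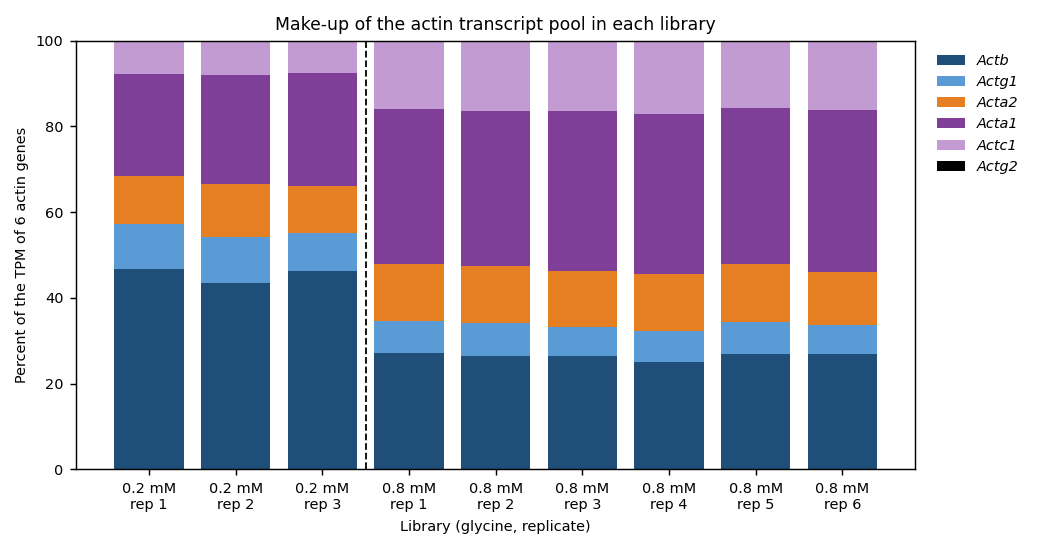
Share of the summed TPM of 6 actin genes held by each, in percent (vertical axis), for every library. Actb with Actg1 (blues) takes 54.2% or more in each 0.2 mM library and 34.7% or less in each 0.8 mM library, Acta2 (orange) stays between 10.95% and 13.5%, and Acta1 with Actc1 (purples) reaches at least 51.96% at 0.8 mM.

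Other genes of the same machinery were read from lists of known members. The sarcomeric actins and myosin light chains rose in 5 of the 5 genes that met the filter, of 9 listed. Acta1, skeletal actin, rose from 904 ± 118 to 3671 ± 257 TPM, Mylpf, the regulatory light chain of fast muscle, from 892 ± 63.9 to 2408 ± 156 TPM, and Myl4, the atrial and embryonic light chain, from 975 ± 49.8 to 1709 ± 77.8 TPM. The others were Actc1 and Myl1. The median change of the 5 was 1.43, and 16.7% of all genes tested rose.

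Tropomyosins and the proteins that cap or bind filament ends together with them rose in 6 of 7 genes tested. Of all genes tested, 16.7% rose. Tpm1 rose from 127 ± 6.02 to 403 ± 17.9 TPM and Tpm2 from 151 ± 20.96 to 433 ± 19.3 TPM, both genes with muscle and nonmuscle isoforms that gene-level TPM does not separate. Tpm3 rose from 64.9 ± 1.43 to 78.98 ± 7.32 TPM (limma adjusted p = 0.0302). That call failed when 1 of 5 libraries was dropped, most of all 0.2 mM replicate 3 (limma adjusted p = 0.0888), and also after median-ratio scaling or quantile normalization, with no filter, and without mitochondrial and ribosomal RNA genes. The 1 that did not pass was Tmod3, the ubiquitous tropomodulin, at 4.38 ± 0.183 and 4.44 ± 0.517 TPM.

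SRF itself did not pass, at 1.82 ± 0.1003 and 1.67 ± 0.225 TPM (limma adjusted p = 0.688). Its coactivators Mkl1 (MRTF-A) and Mkl2 (MRTF-B) stood at 1.19 ± 0.158 and 1.297 ± 0.209 TPM and at 1.33 ± 0.311 and 2.71 ± 0.994 TPM, and neither passed (limma adjusted p = 0.774 and 0.0673). Mkl2 passed without 0.8 mM replicate 4 (limma adjusted p = 0.0165) and in libraries 1 to 3 of both groups (0.0304, or 0.036 when blocked by library number). Myocd, the myocardin gene, which drives smooth muscle genes together with SRF, did not exceed 0.0352 TPM in any library. Of 10 regulators tested, 3 rose and 1 fell, where 16.7% of all genes tested rose and 9.81% fell. The rises were those of Mical2, which oxidizes actin, Phactr4, which binds actin monomers, and Fhl2, a LIM protein. Scai, a suppressor of MRTF, fell from 1.595 ± 0.637 to 0.423 ± 0.241 TPM. The call of Phactr4 was lost in 11 of 17 alternatives, among them median-ratio scaling, quantile normalization, no filter, and the loss of any 1 of 5 libraries, most of all 0.2 mM replicate 3 (limma adjusted p = 0.158). Elk4, the most abundant of the list, did not pass at 6.03 ± 1.31 and 6.67 ± 2.08 TPM. Mical2, under 1 TPM in every 0.2 mM library, met the filter through its 0.8 mM libraries alone, so that a gene of its kind could enter only by being higher there. Scai met it through its 0.2 mM libraries alone, and it was not tested when any 1 of these was left out.

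Among 29 tested cytoskeletal genes of a list of 31 known SRF and MRTF targets, the 10 genes not counted, 20 rose, 0 fell and 9 did not pass. The median change was 0.45, and 16.7% of all genes tested rose. Some of these rises, among them those of Tpm1, Tpm2, Tpm3, Cfl1, Fhl2 and Mical2, are also counted in other lists here, so the lists are not separate. The most abundant were Vim, the intermediate filament vimentin, which rose from 405 ± 25.5 to 673 ± 33.98 TPM, Cfl1, cofilin, which severs filaments, from 285 ± 13.6 to 466 ± 24.5 TPM, and Tpm2. With quantile normalization 13 of the list rose and 2, Myh9 and Cald1, fell. With median-ratio scaling 15 rose and 1, Myh9, fell, and Myh9 also fell without 0.8 mM replicate 4.

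Among contractile genes of smooth muscle, some were near 0 and others rose. Cnn1 did not exceed 0.178 TPM and Myh11, the smooth muscle myosin heavy chain, 0.0650 TPM in any library. Of 14 such genes 5 met the filter, and 3 of these rose, namely Des, desmin, which skeletal muscle also makes, from 104 ± 12.8 to 356 ± 30.5 TPM, Smtn, smoothelin, from 5.93 ± 0.576 to 19.1 ± 2.67 TPM, and Synpo2, an actin-binding protein of striated and smooth muscle, from 1.95 ± 0.143 to 4.69 ± 1.06 TPM. The share of all genes tested that rose was 16.7%.

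Of 12 tested genes of nonmuscle myosin II and its control, 2 rose and 0 fell, with a median of 0.07, near the share of rises (16.7%) and the median (0.06) of all genes tested. Myl12a, a regulatory light chain close to Myl9, rose from 387 ± 9.10 to 541 ± 24.8 TPM, and Rhob, a small GTPase, from 11.9 ± 1.14 to 18.7 ± 2.25 TPM. Myl12b, the neighbouring near-identical gene, did not pass at means of 125 ± 12.4 and 149 ± 19.7 TPM (limma adjusted p = 0.14), though it did without 0.8 mM replicate 4 (0.0169). How reads that match both Myl12a and Myl12b were assigned is not given in the sources used here, so their split is uncertain. Rhoc did not pass at 143 ± 5.68 and 154 ± 8.55 TPM. With median-ratio scaling or quantile normalization, 2 of the list, Myh9 and Rhoa, fell.

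Among 14 genes for proteins that bind actin monomers, 6 rose, 0 fell and 8 did not pass. Tmsb10 and Tmsb4x, thymosins that sequester monomers, both rose, Tmsb10 from 6828 ± 422 to 14366 ± 779.9 TPM and Tmsb4x from 3387 ± 288 to 5498 ± 344 TPM. Pfn1, profilin, which feeds monomers to growing ends, went from 929 ± 42.0 to 1719 ± 59.2 TPM and also rose. Of 16 cross-linking genes, 6 rose, 0 fell and 10 did not pass, among them the abundant Sptan1, Lcp1 and Cttn. Of 19 nucleation and capping genes tested 3 rose and 3 fell, with a median of 0.04. The share that rose and the median were near those of all genes tested (16.7% and 0.06, with 9.81% that fell). In this list Capzb, Arpc2 and Enah rose, and Capg, Arpc5l and Actr3 fell. The call of Enah was lost in 14 of 17 alternatives, among them both scalings, no filter and the loss of any 1 of 8 libraries. That of Actr3 was lost with no filter, in libraries 1 to 3, and without any 1 of 6 libraries. Both were weakest without 0.2 mM replicate 2 (limma adjusted p = 0.202 and 0.161). Arpc1b, the most abundant of the list, did not pass at 309 ± 20.1 and 331 ± 29.2 TPM.

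**Figure D5:**
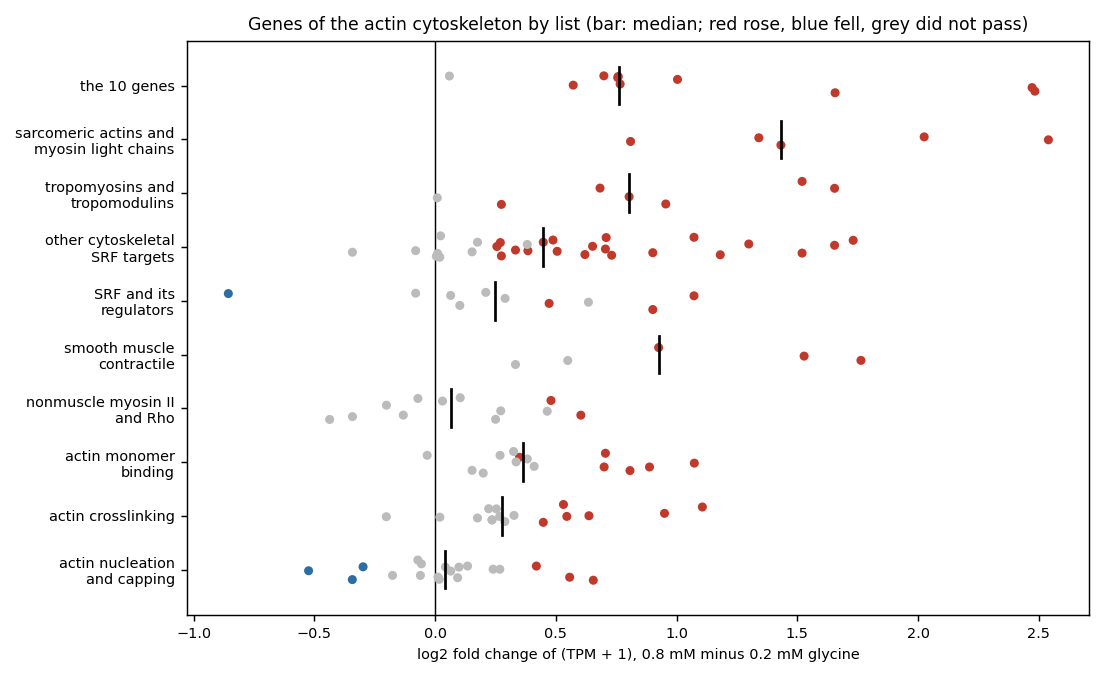
Each point is 1 gene tested, by the log2 difference of (TPM + 1) between 0.8 mM and 0.2 mM (horizontal axis), and by list (vertical axis), red where it rose, blue where it fell, grey where it did not pass, with the list's median as a black bar. The 10 genes have a median of 0.76, the sarcomeric actins and light chains 1.43 and the nonmuscle myosin II list 0.07, in which Myh9 and Rhoa fell with median-ratio or quantile scaling.

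The genes with the profiles most like each of the 10 were found among 935 other genes of at least 50 TPM on average, by the mean absolute difference of the centred log2(TPM + 1) profiles over the 9 libraries. Likeness here largely reflects a change of like size between the groups, as 1.68 for Tuba1b beside 1.66 for Acta2. Shared control was not tested. Acta2 was closest to Tuba1b, Tpm1 and Calr, with differences of 0.0589 to 0.0793. Actb was closest to Pgk1, Gapdh and Aldoa of glycolysis. Gapdh, like Actb a common reference gene for RNA measurements, went from 2752 TPM to 4582 TPM on average, a change of 0.74 beside 0.70 for Actb. Actg1 was closest to Pdia6, Tmsb10 and Hacd1, Myl6 to Uqcrh, Gnai2 and Morf4l2, Tpm4 to Tmsb4x, Oaz1 and Cfl1, and Cnn3 to Col1a2, Tmem59 and Arf1. Tagln was closest to Ndufa4l2, Crip1 and Tuba1a, and Myl9 to Ndufa4l2, Tuba1a and Actc1, at larger differences of 0.138 to 0.185. Cnn2 was closest to Lyz2, with a difference of 0.114. Tagln2 was closest to the ribosomal gene Rpl10.

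The 10 genes are not specific to myoblasts, and fibroblasts, pericytes and smooth muscle cells express several of them. In bulk RNA, fewer cells of a type and less RNA per cell cannot be told apart. For comparison with the marker counts below, 16.7% of all genes tested rose and 9.81% fell. Myoblast markers were present, with 7 of 8 that rose and a summed level of 410 to 479 TPM at 0.2 mM and 906 to 1125 TPM at 0.8 mM. The larger part of that sum was Myog, at 247 ± 16.9 and 523 ± 41.2 TPM, with Des, at 104 ± 12.8 and 356 ± 30.5 TPM. Pax7 was the 1 marker of the list that did not pass, near 1 TPM at 0.712 ± 0.176 and 1.20 ± 0.312 TPM. Of 12 fibroblast markers 9 rose and none fell, and 3 missed the threshold, namely Dcn, Thy1 and Dpt. Their sum was 2391 to 2799 TPM and 2890 to 3499.7 TPM, the larger part of it Dcn, decorin, at 1878 ± 184 and 1689 ± 209 TPM. Of 12 markers of smooth muscle and pericytes 3 were tested and 2, Cspg4 and Mcam, rose and 1, Pdgfrb, did not pass, while 7 stayed under 1 TPM in every library and the sum was 6.67 to 8.03 TPM and 13.2 to 17.8 TPM. Of 12 macrophage markers 10 were tested and 4 rose, namely Lyz2, Tyrobp, Cd14 and Itgam. Cd68 fell, and the other 5, Adgre1, C1qa, C1qb, Csf1r and Ptprc, did not pass. With quantile normalization the call of Tyrobp was lost (limma adjusted p = 0.0906) and C1qa fell (0.0283), as C1qa also did with median-ratio scaling (0.0292). The macrophage sum was 968 to 1083 TPM and 1213 to 1641 TPM. Its larger part was Lyz2, at 588 ± 30.6 and 1013 ± 153 TPM, while Cd68 went the other way, from 182 ± 13.6 to 57.6 ± 2.38 TPM. Of 8 endothelial markers the 4 tested, Pecam1, Cdh5, Emcn and Cldn5, rose, and the sum was 12.2 to 13.1 TPM and 21.6 to 31.2 TPM. Cspg4, Itgam, Pecam1, Cdh5 and the fibroblast marker Pi16 were under 1 TPM in every 0.2 mM library and met the filter through the 0.8 mM libraries alone, so their rises were favoured by the filter. The part of these cells in the changes of the 10 genes was not tested.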

How the data were processed

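The authors deposited 1 table of TPM per gene for 9 libraries. The submitters' processing notes name mm10 as the build and, as tools, DESeq2, HISAT2 2.0.5 and StringTie 1.3.3, while the role of each tool, the annotation release and whether strand was used are not stated there. Per the labels' protocols, RNA was taken with Trizol and an Illumina TruSeq kit made the libraries. TPM keeps no read numbers, so no interval from depth is given, and precision comes from the spread over libraries. Libraries were compared with each other, and none were identical.

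Positions are from GENCODE M21 on GRCm38, with 53620 of 53715 IDs matched without their version (Acta2 has another version there), and promoters are from RefSeq. All 9 libraries entered limma (version 3.58.1, R 4.3.3) as log2(TPM + 1), unscaled, with lmFit and eBayes with a trend over the 10049 genes kept. The procedure was tested on simulated data. Ratios used exact permutation tests in scipy 1.17.1. Figures were drawn with matplotlib 3.10.9.

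The 10 genes and the lists were chosen with earlier results of these data known, so no list was tested. All 10 were named whatever their result, with the 3 most abundant genes of each list, every gene of a count of 5 or fewer, a fixed set with SRF and its coactivators, and up to 3 genes per member by likeness of profile, while a few genes that these rules take are not reported here. Cald1, Myh9 and Rhoa were named after their values were seen. Alternatives were pseudocounts of 0.1 and 0.5, no filter, a filter at a mean of 5 TPM, median-ratio scaling, quantile normalization, TPM rescaled without mitochondrially encoded and ribosomal RNA genes, each library left out in turn, the library number as a replicate block, and log2 ratios.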

Additional observations from a re-analysis of the deposited data

Results flagged for a closer look

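Among the 6 libraries at 0.8 mM, 1 value lay far from the rest for 2 of 18 quantities examined (the 10 genes and 8 ratios), where chance gives about 1 in 20 groups. Cnn3 was at 108.21 TPM in 0.8 mM replicate 2, a gap to the next library of 0.668 of the whole range. Acta2 held 12.202% of the actin TPM in 0.8 mM replicate 6, the lowest of the 6, with a gap of 0.671 of the range.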

How the results depend on the processing

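Each of the 9 rises among the 10 genes passed under all 18 alternatives of the gene test, and the 8 ratios kept their direction and call as log2 ratios. Without any 1 library each kept its direction and moved by less than the larger of its 2 group SDs, but 2 differences moved by over 1.5 times, that of Actb to Actg1 from -0.89 to -0.557 without 0.2 mM replicate 3 and that of Cnn2 to Cnn3, which had not passed, from 0.0402 to 0.0622 without 0.2 mM replicate 2. Scaling turned some small differences that had not passed. After median-ratio scaling the log2 fold change of Tagln2 was -0.026 and that of Tmod3 -0.061. After quantile normalization it was -0.25 for Tagln2, so that 1 of the 10 genes fell, -0.16 for Arpc1b, -0.015 for Mkl1, -0.042 for Rhoc and -0.0598 for Tmod3, and without mitochondrial and ribosomal RNA genes it was -0.0229 for Tmod3. With 1 library left out the change of Elk4 ran from -0.027 to 0.24, that of Ptprc from -0.39 to 0.17 and that of Tmod3 from -0.0205 to 0.049. Without 0.8 mM replicate 1 Thy1 and Ppp1r14a passed, and C1qa did without 0.8 mM replicate 6 (limma adjusted p = 0.0322), with either scaling, with a mean of at least 5 TPM and without mitochondrial and ribosomal RNA genes (0.0283 to 0.0473). With a mean of at least 5 TPM required, 0 of the SRF regulators rose or fell, 0 smooth muscle and pericyte markers and 1 endothelial marker rose, since fewer genes of each list were tested, and 2 macrophage markers fell. For the other changes the cause was not tested.

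Libraries 1 to 3 of both groups share numbers, but their deviations from the group means had correlations of 0.038, 0.0023 and 0.107, not all above 0.1, and not every library went best with its own number, so the number was not taken as a pairing. With it as a replicate block, 1157 genes rose and 625 fell, and the 9 rises among the 10 genes passed, while the same 6 libraries without the block gave 1318 and 748. With the block 13 of the SRF targets and 3 of the cross-linking genes rose, against 16 and 5 in the same libraries without it, 1 nucleation and capping gene fell, and 1 fibroblast marker, Dcn, fell. The change of Srf was 0.019 and that of Ptprc 0.10 in these 6 libraries, with the block or without. Depth is unknown, so what it limits cannot be stated.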
